A study of Mus musculus with 12 samples.

Results

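The genes described here are 9 genes linked to the resting state of T cells, chosen by name with earlier results of these data known. Each was found by its symbol among the 26608 genes listed in every count file. They were *Btg1*, *Btg2*, *Tob1*, and *Tob2* of the BTG/TOB family, *Slfn1*, *Slfn2*, and *Slfn5* of the Schlafen family, *Foxp1*, and *Tsc22d3*, which encodes the protein Gilz. All 9 passed the filter on low counts, which left 16035 genes to be tested. The libraries were made from CD4+ YFP(FOXP3)- T cells, sorted after spleen and lymph nodes (cervical, inguinal) had been pooled, of mice 14 weeks old on the B6 background. Each group had 4 mice, each with its own library. The WT group was Foxp3Cre WT, and the other groups, DKO-moderate and DKO-severe, were Foxp3-Cre Tet2/3 fl/fl mice. The study divided the latter by the number of cells in spleen and lymph nodes. All 3 groups carried the Foxp3-Cre allele, in which YFP and Cre are expressed from *Foxp3*. Deletion of *Tet2* and *Tet3* is therefore directed to cells that express or have expressed *Foxp3*, although the study notes that this Cre can be leaky, so other cells may also have lost the alleles. The sorted cells were YFP-negative and could hold former Treg cells beside CD4+ T cells with intact *Tet2* and *Tet3*. Each library is thus a mixture.

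Reads on genes ranged from 29254260 to 42133536 per library. Levels are given as CPM, counts relative to the library total after TMM scaling. *Tet2* and *Tet3* were counted over whole genes in a mixture of cells and were not taken as a check of the labels. The cause of their levels was not tested. *Tet2* ranged from 43.3 to 62.2 CPM in WT, from 34.8 to 57.8 CPM in DKO-moderate, and from 56.7 to 65.8 CPM in DKO-severe. For *Tet3* these ranges were 167.4 to 210.4 CPM, 90.3 to 184.7 CPM, and 87.8 to 102.5 CPM. *Foxp3* did not exceed 3.10 CPM in any library. The summed CPM of 8 T cell markers was between 4226 and 5263 in all libraries. The 10 neutrophil markers summed to at most 2.10 CPM in WT and 8.58 CPM in DKO-moderate, but to 2249, 827.8, 23.9, and 10.3 CPM in DKO-severe 1 to 4. *Elane* was the 1 neutrophil marker not counted in any WT library. The 8 B cell markers summed to 199.8 CPM in WT 3, to at most 2.94 CPM in the other WT libraries, and to 52.2 to 313.6 CPM in DKO-severe. The 8 monocyte and macrophage markers summed to a median of 15.1 CPM in WT, with 186.0 CPM in the highest library, to 16.9 to 59.0 CPM in DKO-moderate, and to 89.6 to 485.3 CPM in DKO-severe, where 3 of them rose relative to WT (edgeR). The 5 plasma cell markers summed to a median of 1.72 CPM in WT, with 89.1 CPM in WT 3, to 2.84 to 26.1 CPM in DKO-moderate, and to 51.1 to 197.8 CPM in DKO-severe, where 2 of them rose relative to WT (edgeR). The part of these cells in the results was not tested. DKO-severe 1 and DKO-severe 2 had the highest neutrophil sums, and WT 3 had the highest B cell sum of WT. For the 9 genes, calls that turn on these libraries are given with and without them. Changes of genes on the other lists are given with all libraries in. On the B cell list DKO-severe 4, at 136.1 CPM, was above DKO-severe 1, at 83.4 CPM, but it was not left out with them. Y-linked transcripts were at or near 0 in WT 2, DKO-moderate 2, DKO-moderate 4, and DKO-severe 3.

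Quiescence is the resting state in which naive and many memory T cells survive without dividing, and it is kept by active programs that are dismantled after activation. BTG and TOB proteins bind the CCR4-NOT deadenylase and bring it to mRNAs, whose poly(A) tails are then shortened. Schlafen proteins take their name from the German word for sleep. *Slfn2* is needed for the survival of quiescent T cells, and *Slfn1* halts thymocyte growth when overexpressed. FOXP1 is a forkhead transcription factor that holds naive T cells in the resting state and restrains follicular helper differentiation, and Gilz is a leucine zipper protein induced by glucocorticoids that dampens activation.

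The stretches upstream of *Slfn1*, *Slfn2*, *Slfn5*, and *Btg1* are shown because the Schlafen genes lie together on chromosome 11 but differed in their changes, and because *Btg1* had the largest fold change of the 9 and *Slfn5* and *Btg1* were the members whose promoters held the interferon-stimulated response element core or the forkhead motif searched. Each is the 250 bases before the annotated start on the plus strand, from RefSeq on GRCm38.p6. They lie at chr11:83116570-83116819, chr11:83064862-83065111, chr11:82951852-82952101, and chr10:96616751-96617000. GENCODE places *Slfn5* at 11:82951349-82964840, so its stretch precedes the RefSeq start but lies inside the GENCODE gene. Capitals mark a forkhead motif in *Btg1* and an interferon-stimulated response element core in *Slfn5*.
Slfn1 upstream: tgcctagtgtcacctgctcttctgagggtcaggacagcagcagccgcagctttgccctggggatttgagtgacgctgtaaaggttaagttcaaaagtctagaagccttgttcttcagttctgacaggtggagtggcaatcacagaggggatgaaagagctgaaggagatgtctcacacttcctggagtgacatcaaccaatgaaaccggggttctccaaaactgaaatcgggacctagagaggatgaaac
Slfn2 upstream: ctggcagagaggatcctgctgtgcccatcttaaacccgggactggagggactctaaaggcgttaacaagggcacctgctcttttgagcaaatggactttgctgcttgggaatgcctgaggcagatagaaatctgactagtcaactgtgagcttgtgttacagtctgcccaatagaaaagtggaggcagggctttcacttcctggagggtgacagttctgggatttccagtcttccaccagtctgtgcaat
Slfn5 upstream: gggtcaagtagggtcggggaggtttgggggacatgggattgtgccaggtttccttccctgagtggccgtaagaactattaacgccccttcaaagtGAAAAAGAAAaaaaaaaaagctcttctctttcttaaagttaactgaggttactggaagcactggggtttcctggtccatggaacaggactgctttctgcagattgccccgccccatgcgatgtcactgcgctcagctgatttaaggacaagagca
Btg1 upstream: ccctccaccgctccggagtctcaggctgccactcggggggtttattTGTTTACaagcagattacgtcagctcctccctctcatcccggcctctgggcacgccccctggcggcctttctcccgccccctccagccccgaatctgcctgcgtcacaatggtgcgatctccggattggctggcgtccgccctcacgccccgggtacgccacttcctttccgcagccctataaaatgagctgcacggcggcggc

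The motifs were searched on both strands of 300-base RefSeq promoter windows, which included 50 bases after the start. The 9 members had 13 windows. The forkhead motif GTAAACA was found in 1 member, *Btg1*, beginning at base -204 from the start, and was present in 3.65% of the 32851 windows of all genes. The interferon-stimulated response element core GAAANNGAAA was found in 1 member, *Slfn5*, beginning at base -155 from its RefSeq start, against 3.44% of all windows. The glucocorticoid response element core ACANNNTGT, held by 6.85% of all windows, was not matched in any member, *Tsc22d3* included. The GC box GGGCGG, whose matches did not overlap those of the other motifs, was found in 9 of the 13 windows and in 7 members, against 35.7% of all windows. *Slfn1* and *Slfn2* were the members without it.

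In DKO-severe cells, 8 of the 9 genes fell relative to WT and 0 rose (edgeR quasi-likelihood F test, Benjamini-Hochberg adjusted p under 0.05). *Slfn2* did not reach an unadjusted p under 0.05. By limma voom 6 genes fell and 0 rose, with *Tob2* (adjusted p = 0.0601) and *Tsc22d3* (adjusted p = 0.0688) not past the threshold. DESeq2 called 8 genes, of which *Slfn2* rose, and did not call *Tob2* (adjusted p = 0.0943). Among all tested genes, 25.9% fell and 26.6% rose in this comparison. The median log2 fold change was -0.80 over the 9 genes and -0.005 over all tested genes. These shares and medians are a description, as the 9 genes were chosen with earlier results of these data known. *Btg1* and *Foxp1* lost the most, with DKO-severe means at 37.1% and 37.9% of WT. *Slfn2* was the exception and was higher in every DKO-severe library than in any WT library, although its change did not pass the threshold. As these are bulk libraries, fewer cells with high levels and less RNA per cell cannot be told apart.

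Judged by the libraries alone, 6 genes were lower in every DKO-severe library than in any WT library, a pattern seen in 27.3% of all tested genes. One gene, *Slfn2*, was higher in every library, as were 24.6% of all tested genes. *Tob2* and *Tsc22d3* overlapped. In DKO-moderate, *Btg1* and *Foxp1* fell relative to WT, 2 genes of 9, against 4.74% of all tested genes that fell and 12.3% that rose. *Foxp1* was lower and *Slfn2* higher in every DKO-moderate library than in any WT library, which held for 10.2% and 14.6% of all tested genes, respectively. From DKO-moderate to DKO-severe, 3 genes fell, *Btg1*, *Foxp1*, and *Slfn1*, against 10.7% of all tested genes that fell and 9.41% that rose. In this last comparison 4 genes did not overlap, all of them lower in DKO-severe, against 11.6% of all tested genes, and 9.77% were higher in every library. The comparisons share groups, so their counts are not independent.

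**Figure D1:**
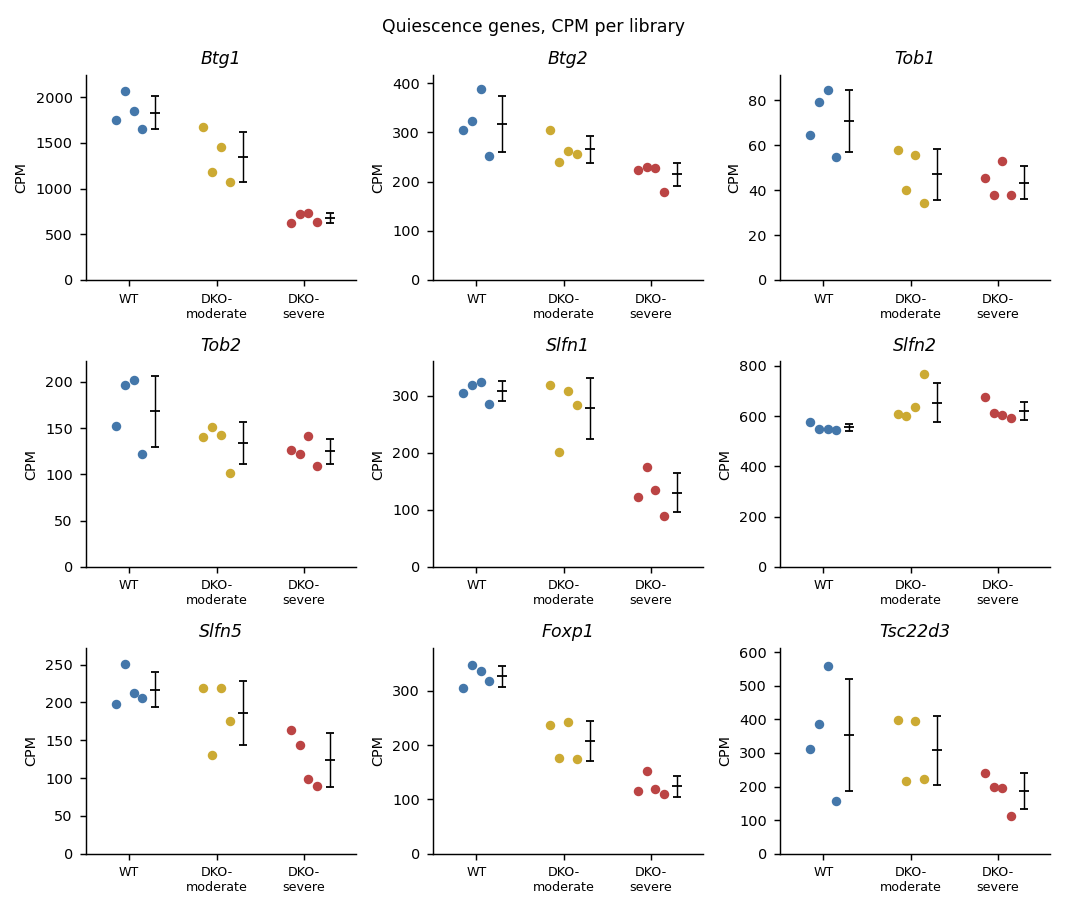
CPM of the 9 genes (y axis, linear from 0) in each of the 12 libraries (points) by group (x axis), with the mean and SD of 4 libraries beside them. *Btg1* and *Foxp1* descended from WT through DKO-moderate to DKO-severe, *Slfn1* was lowest in DKO-severe, and *Slfn2* lay above WT in both DKO groups.

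*Btg1*, an antiproliferative gene of resting lymphocytes, lies on chromosome 10 (10:96617006-96622809, plus strand, GRCm38). The gene gave 1753.8, 2067.2, 1844.6, and 1654.7 CPM in WT libraries 1 to 4. The values were 1673.5, 1185.2, 1448.7, and 1073.9 CPM for DKO-moderate 1 to 4 and 626.5, 725.5, 729.0, and 635.7 CPM for DKO-severe 1 to 4. All DKO-severe libraries lay below all others, whereas DKO-moderate 1 overlapped WT. DKO-severe differed from WT by a log2 fold change of -1.43 (SE 0.14, edgeR adjusted p = 1.17e-05). For DKO-moderate and WT it was -0.44 (SE 0.13, edgeR adjusted p = 0.0395), and it was -0.99 (SE 0.13, edgeR adjusted p = 0.0025) between the DKO groups. The fall in DKO-moderate lost the threshold when WT 1, WT 2, WT 3, DKO-moderate 2, DKO-moderate 4, or DKO-severe 3 was left out, with edgeR adjusted p between 0.0513 and 0.117.

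*Btg2*, a p53 target of the same family (1:134075170-134079120, minus strand), gave 305.2, 323.7, 387.2, and 251.0 CPM in WT libraries 1 to 4. The values were 304.4, 239.5, 261.8, and 255.9 CPM for DKO-moderate 1 to 4 and 224.0, 229.6, 226.5, and 179.6 CPM for DKO-severe 1 to 4. The DKO-severe libraries were below all WT and all DKO-moderate libraries. Relative to WT, the log2 fold change was -0.56 (SE 0.13, edgeR adjusted p = 0.00372) in DKO-severe. In DKO-moderate it was -0.26 (SE 0.13, edgeR adjusted p = 0.2), and between the DKO groups -0.30 (SE 0.13, edgeR adjusted p = 0.115), with 95% intervals of -0.54 to 0.03 and -0.59 to -0.02.

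*Tob1*, a repressor of T cell proliferation and cytokine transcription (11:94211454-94215495, plus strand), gave 64.7, 79.2, 84.6, and 54.6 CPM in WT libraries 1 to 4. The values were 57.9, 40.3, 55.5, and 34.3 CPM for DKO-moderate 1 to 4 and 45.3, 37.7, 52.8, and 37.6 CPM for DKO-severe 1 to 4. DKO-severe was below WT in every library, and the DKO groups overlapped. Relative to WT, its log2 fold change was -0.71 (SE 0.19, edgeR adjusted p = 0.00818) in DKO-severe and -0.59 (SE 0.19, edgeR adjusted p = 0.0511) in DKO-moderate. The change in DKO-moderate passed the threshold when WT 4, DKO-moderate 1, DKO-moderate 3, or DKO-severe 2 was left out, with edgeR adjusted p between 0.0328 and 0.049. Between the DKO groups the log2 fold change was -0.12, with a 95% interval of -0.53 to 0.30.

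*Tob2*, the close relative of *Tob1* (15:81848272-81858796, minus strand), gave 151.8, 196.3, 202.5, and 121.8 CPM in WT libraries 1 to 4. The values were 140.2, 151.1, 143.1, and 101.3 CPM for DKO-moderate 1 to 4 and 126.3, 122.3, 141.8, and 109.1 CPM for DKO-severe 1 to 4. All 3 groups overlapped, since WT 4 was within the range of DKO-severe. DKO-severe differed from WT by -0.43 on the log2 scale (SE 0.17, edgeR adjusted p = 0.047). This call was lost in 9 of 12 fits that left out 1 library, each except those without WT 4, DKO-moderate 4, and DKO-severe 3, and in 11 of 12 other alternatives. In DKO-moderate the log2 fold change was -0.33, with a 95% interval of -0.69 to 0.03.

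To compare genes, CPM were divided by the kilobases covered by all annotated GENCODE exons of each gene. The transcripts in use were not measured, so such comparisons between genes are approximate. On this scale, *Btg1* made up 67.1% ± 3.2 (SD, n = 4) of the summed level of the 4 BTG/TOB genes in WT. Its share was 64.7% ± 2.1 for DKO-moderate and 52.6% ± 2.3 for DKO-severe. The sum itself was 518.5 ± 58.5 (WT), 392.4 ± 66.3 (DKO-moderate), and 244.8 ± 20.4 (DKO-severe) CPM per kilobase. The DKO-severe values of both were below those of every other library.

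*Foxp1* (6:98925338-99522721, minus strand) gave 304.6, 348.4, 337.2, and 318.1 CPM in WT libraries 1 to 4. The values were 236.8, 176.8, 243.6, and 173.7 CPM for DKO-moderate 1 to 4 and 115.8, 151.9, 119.1, and 109.3 CPM for DKO-severe 1 to 4. The 3 groups did not overlap. *Foxp1* was the only member for which this held in all 3 comparisons. The log2 fold change against WT was -1.40 (SE 0.14, edgeR adjusted p = 1.31e-05) in DKO-severe and -0.65 (SE 0.13, edgeR adjusted p = 0.0065) in DKO-moderate. It was -0.74 (SE 0.13, edgeR adjusted p = 0.00539) between the DKO groups.

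*Slfn1* (11:83116849-83122670, plus strand) gave 305.0, 318.8, 324.9, and 285.3 CPM in WT libraries 1 to 4. The values were 318.2, 201.3, 308.6, and 283.6 CPM for DKO-moderate 1 to 4 and 122.0, 174.2, 134.5, and 89.9 CPM for DKO-severe 1 to 4. DKO-severe was below every other library, and in DKO-moderate, library 2 was well below WT and library 4 just below it. Its log2 fold change in DKO-severe was -1.25 relative to WT (SE 0.19, edgeR adjusted p = 0.000178) and -1.09 relative to DKO-moderate (SE 0.18, edgeR adjusted p = 0.00436). DKO-moderate differed from WT by -0.15 (edgeR adjusted p = 0.602), with a 95% interval of -0.55 to 0.25.

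*Slfn2* (11:83065112-83070678, plus strand) gave 576.8, 548.7, 548.2, and 546.3 CPM in WT libraries 1 to 4. The values were 609.8, 600.1, 635.5, and 767.2 CPM for DKO-moderate 1 to 4 and 674.2, 613.2, 602.6, and 592.4 CPM for DKO-severe 1 to 4. All 8 DKO libraries exceeded all WT libraries. Relative to WT, the log2 fold changes were 0.16 (SE 0.088, edgeR adjusted p = 0.14) in DKO-severe and 0.24 (SE 0.088, edgeR adjusted p = 0.0867) in DKO-moderate. With DESeq2 the changes passed the threshold, at 0.24 with an adjusted p of 0.00874 in DKO-severe and at 0.24 with an adjusted p of 0.0194 in DKO-moderate. Leaving out DKO-moderate 4 also put the DKO-severe change past the threshold (0.19, edgeR adjusted p = 0.0166). DESeq2 size factors in edgeR did so too (0.24, edgeR adjusted p = 0.0314). Other alternatives made this change smaller. It was 0.14 without DKO-severe 1 and DKO-severe 2 (edgeR adjusted p = 0.353). With terms for the neutrophil and B cell lists it was 0.010 (edgeR adjusted p = 0.977). The antisense gene *Gm20234* overlaps *Slfn2*, and the strand-aware counting keeps its reads apart.

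*Slfn5* (11:82951349-82964840, plus strand) gave 198.2, 250.5, 212.4, and 205.3 CPM in WT libraries 1 to 4. The values were 219.5, 130.3, 218.9, and 175.9 CPM for DKO-moderate 1 to 4 and 163.9, 143.2, 99.2, and 89.9 CPM for DKO-severe 1 to 4. The DKO-severe libraries were below all WT libraries but overlapped DKO-moderate. Its log2 fold change relative to WT was -0.80 in DKO-severe (SE 0.20, edgeR adjusted p = 0.00602) and -0.22 in DKO-moderate (SE 0.20, edgeR adjusted p = 0.486). Between the DKO groups it was -0.59 (SE 0.20, edgeR adjusted p = 0.0618), which passed the threshold without DKO-moderate 2 (edgeR adjusted p = 0.0221) or DKO-severe 1 (edgeR adjusted p = 0.0363).

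The ratio of *Slfn2* to *Slfn1* CPM was 1.80 ± 0.12 (SD, n = 4) in WT. It was 2.42 ± 0.51 for DKO-moderate and 5.03 ± 1.32 for DKO-severe, where it ranged from 3.52 to 6.59. Per kilobase of exon, *Slfn2* made up 62.6% ± 1.6 of the 3 Schlafen genes in WT, and its share was 68.8% ± 4.7 for DKO-moderate and 80.8% ± 3.7 for DKO-severe. Their summed level was 533.3 ± 13.1 (WT), 571.0 ± 62.5 (DKO-moderate), and 462.4 ± 35.4 (DKO-severe) CPM per kilobase. The 3 groups did not overlap in the *Slfn2* share or the ratio, although DKO-moderate 1 lay next to the highest WT library in both. These ratios are given as a description without a test. Reads that fit several Schlafen genes equally well were not counted, so the levels of near-identical relatives are uncertain.

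**Figure D2:**
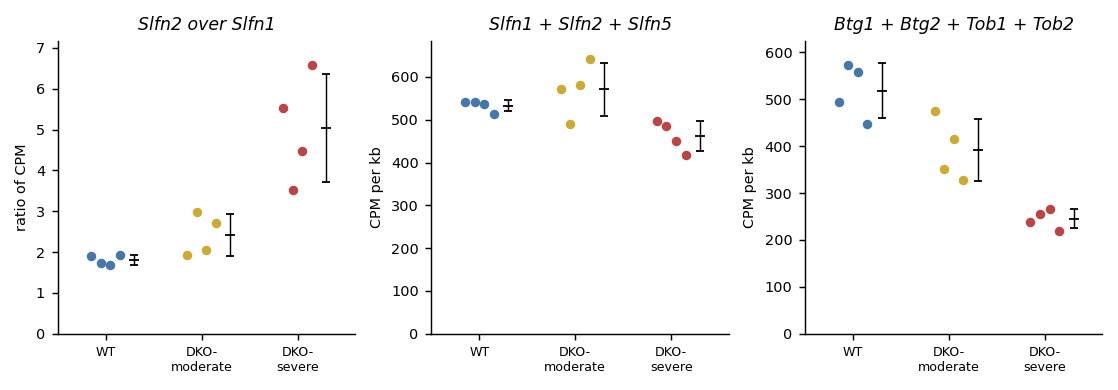
Ratio of *Slfn2* to *Slfn1* CPM, summed level of *Slfn1*, *Slfn2*, and *Slfn5*, and summed level of the 4 BTG/TOB genes, both sums in CPM per kilobase of exon (y axes, linear from 0), in each library (points) by group (x axis) with the mean and SD of 4 libraries. The ratio was between 3.52 and 6.59 in DKO-severe and at most 2.98 elsewhere.

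*Tsc22d3* (X:140539528-140600659, minus strand) was the most variable of the 9 genes within WT. The gene gave 311.5, 385.9, 560.2, and 157.0 CPM in WT libraries 1 to 4. The values were 398.1, 215.3, 396.4, and 222.7 CPM for DKO-moderate 1 to 4 and 239.7, 198.9, 195.3, and 111.6 CPM for DKO-severe 1 to 4. WT 4 was below 3 of the 4 DKO-severe libraries, and the groups overlapped in all 3 comparisons. DKO-severe differed from WT by -0.92 on the log2 scale (SE 0.36, edgeR adjusted p = 0.0455). This call was lost in 8 of 12 fits that left out 1 library, those without WT 1, WT 2, WT 3, DKO-moderate 3, DKO-moderate 4, DKO-severe 2, DKO-severe 3, or DKO-severe 4, and in 8 of 12 other alternatives. Without WT 3 the log2 fold change was -0.61 (edgeR adjusted p = 0.152). DKO-moderate differed from WT by -0.20 (95% interval -0.97 to 0.57, edgeR adjusted p = 0.734), and by 0.11 without WT 3.

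**Figure D3:**
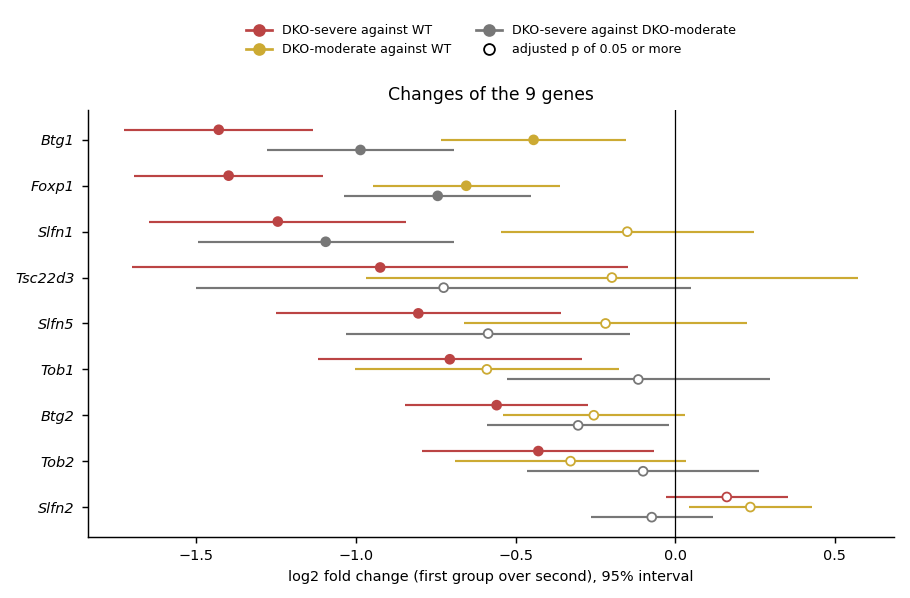
Log2 fold changes of the 9 genes (x axis) with 95% intervals in the 3 comparisons (colors), with filled points for edgeR adjusted p under 0.05 and open points otherwise. In DKO-severe against WT, 8 of the 9 points were filled and all 8 were below 0.

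Per kilobase of exon, *Btg1* (346.9 ± 33.4, SD, n = 4) and *Slfn2* (333.5 ± 8.8) were at the head of the 9 genes in WT, and their ranges overlapped. *Slfn1* (165.5 ± 9.4), *Btg2* (115.5 ± 20.5), and *Tsc22d3* (81.5 ± 38.6) followed. *Slfn5* (34.2 ± 3.7), *Tob1* (30.9 ± 6.0), *Tob2* (25.2 ± 5.7), and *Foxp1* (23.8 ± 1.4) were lowest. Ranges of neighbours in this order overlapped except those of *Slfn2* and *Slfn1* and of *Slfn1* and *Btg2*. In DKO-severe the order opened with *Slfn2* (372.9 ± 22.1), whose range lay above that of *Btg1* (128.8 ± 10.5). The order depends on the exon lengths used. *Foxp1*, whose annotated exons cover 13.75 kilobases, had a WT mean of 327.1 CPM before this scaling.

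Calls were recomputed without DKO-severe 1 and DKO-severe 2, the libraries with the most neutrophil reads, and also without WT 3. DKO-severe 3 and DKO-severe 4 stayed in, with B cell sums of 52.2 and 136.1 CPM, so other cells were not fully removed. The count in DKO-severe against WT was 5 when DKO-severe 1 and DKO-severe 2 were left out, with 6654 of all tested genes called, and also 5 when WT 3 was left out with them, with 6646 called. *Btg1*, *Btg2*, *Foxp1*, *Slfn1*, and *Slfn5* kept their calls in both, and *Tob1*, *Tob2*, and *Tsc22d3* lost theirs. Without the pair, the log2 fold change of *Tob1* was -0.62 (SE 0.25, edgeR adjusted p = 0.0684), that of *Tob2* was -0.39 (SE 0.23, edgeR adjusted p = 0.192), and that of *Tsc22d3* was -1.18 (SE 0.47, edgeR adjusted p = 0.0676). With terms for the neutrophil and B cell lists in the fit, 4 genes remained, *Btg1*, *Foxp1*, *Slfn1*, and *Slfn5*. The median log2 fold change of the 9 genes was then -1.11, against -0.80 without the terms. The SE of each member rose with the terms, from 0.19 to 0.36 for *Slfn1* and from 0.14 to 0.26 for *Btg1*. Neutrophil sums were at least 10.3 CPM in DKO-severe and at most 8.58 CPM elsewhere. The fit therefore cannot well separate this list from the group. In DKO-severe against DKO-moderate the count was 4 without DKO-severe 1 and DKO-severe 2. *Slfn5* was the member gained, with a log2 fold change of -0.94 (edgeR adjusted p = 0.0136). With the terms the count in this comparison was 0 (edgeR). There 4 members had an unadjusted p under 0.05, and the genes called among all tested fell from 3217 to 168. Without the terms the count was 3 by edgeR, DESeq2, and limma voom. The median log2 fold change of the 9 genes between the DKO groups was -0.74 with the terms and -0.59 without them.

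For each of the 9 genes, the tested genes with the most similar profile were sought, by the root mean square difference of log2 CPM, each centred on its mean over the 12 libraries, among 9996 genes with at least 5 CPM on average. The nearest genes to *Slfn1* were *Igtp*, an interferon-inducible GTPase (0.14), and *Slc25a29* (0.16). For *Btg1* they were *Dgka*, a diacylglycerol kinase that limits T cell receptor signaling (0.13), and *Sgpp1* (0.14), and for *Foxp1* they were *Impdh1* (0.10) and *Tmem71* (0.11). *Tsc22d3* was closest to *Txnip* (0.28) and *Dusp2* (0.34). *Slfn2* was closest to *Rrp7a* (0.041) and *Klhdc3* (0.045), *Slfn5* to *Neu1* (0.17) and *Adpgk* (0.17), and *Btg2* to *Tatdn2* (0.084) and *Fbxo33* (0.10). *Tob1* was closest to *Sgms1* (0.12) and *Spty2d1* (0.16), and *Tob2* to *Mex3c* (0.13) and *Eif2ak3* (0.13). Among the members themselves, *Btg1* and *Foxp1* were each other's nearest (0.15), and *Slfn2* was the farthest member from *Slfn1*, *Slfn5*, *Btg1*, *Tsc22d3*, and *Foxp1*. These distances rest on the same 12 libraries as the comparisons and are descriptions.

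Relatives of the 9 genes did not move as one. Of 5 tested Schlafen relatives, 2 rose and 1 fell in DKO-severe against WT, where 26.6% of all tested genes rose and 25.9% fell. *Slfn8* was counted at 158.9 to 180.1 CPM in WT and 13.9 to 67.0 CPM in DKO-severe (log2 fold change -1.99, SE 0.38, edgeR adjusted p = 0.000912). *Slfn9* rose by 1.74 (SE 0.25, edgeR adjusted p = 0.000132). *Slfn4* rose by 4.02 (SE 1.07, edgeR adjusted p = 0.00782), but was at 21.1 and 13.4 CPM in DKO-severe 1 and 2, the libraries with the most neutrophil reads, and at 0.45 and 0.38 CPM in DKO-severe 3 and 4, within the WT range of 0.36 to 0.77 CPM. *Btg3* fell by 1.04 (SE 0.33, edgeR adjusted p = 0.0186). Of 3 TSC22 relatives, *Tsc22d1* rose by 2.68 (SE 0.38, edgeR adjusted p = 0.000118). Both FOXP genes on the list of relatives rose. *Foxp3*, of the same family but not on that list, fell in these YFP(FOXP3)- cells (log2 fold change -2.105, SE 0.68, edgeR adjusted p = 0.0205). *Foxp4* rose by 1.29 (SE 0.21, edgeR adjusted p = 0.00038), opposite to *Foxp1*, and *Foxp2* had no reads in WT and a mean of 3.17 CPM in DKO-severe, so no fold is given.

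Of 15 genes of the CCR4-NOT complex and related poly(A) tail factors, 3 rose and 5 fell in DKO-severe against WT. Their median log2 fold change was -0.18. The calls were near the shares over all tested genes, of which 26.6% rose and 25.9% fell. The deadenylase subunit *Cnot8* fell by 0.38 (SE 0.088, edgeR adjusted p = 0.00328), while the log2 fold changes of the other catalytic subunits *Cnot6*, *Cnot6l*, and *Cnot7* were -0.004, -0.35, and -0.22 and did not pass the threshold. *Pan3*, of another deadenylase, fell by 0.89 (SE 0.19, edgeR adjusted p = 0.00231), and *Pabpc4*, which binds poly(A), rose by 0.42 (SE 0.13, edgeR adjusted p = 0.0167).

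Of 15 other genes linked to T cell quiescence, 7 fell and 2 rose in DKO-severe against WT, and 3 fell and 1 rose in DKO-moderate. The shares over all tested genes were 25.9% and 26.6% in DKO-severe, and 4.74% and 12.3% in DKO-moderate. *Foxo1*, a forkhead factor that sustains *Il7r*, fell by 1.54 (SE 0.14, edgeR adjusted p = 8.67e-06), and *Bach2*, a repressor of effector genes, fell by 1.53 (SE 0.18, edgeR adjusted p = 4.22e-05). The cell cycle inhibitor *Cdkn2c* rose by 2.69 (SE 0.28, edgeR adjusted p = 1.84e-05), as did *Klf4* by 1.95 (SE 0.54, edgeR adjusted p = 0.00951). For *Klf4* the DKO-severe libraries, at 74.25 ± 43.28 CPM (SD, n = 4), overlapped those of WT, at 19.26 ± 7.04 CPM. The part of other cells in its rise was not tested. All 3 genes reported as restrained by Foxp1 changed, but not one way. *Il21* rose by 5.06 (SE 0.52, edgeR adjusted p = 1.63e-05) and *Icos* by 2.95 (SE 0.27, edgeR adjusted p = 9.43e-06), whereas *Il7r* fell by 1.53 (SE 0.34, edgeR adjusted p = 0.00278).

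Of the glucocorticoid receptor and 9 of its targets, 5 genes fell and 1 rose in DKO-severe against WT, where 25.9% of all tested genes fell and 26.6% rose. The receptor *Nr3c1* fell by 0.60 (SE 0.18, edgeR adjusted p = 0.0142). *Dusp1*, a phosphatase of MAP kinases, fell by 2.31 (SE 0.39, edgeR adjusted p = 0.000399), and the kinase *Sgk1* fell by 2.21 (SE 0.25, edgeR adjusted p = 3.17e-05). In contrast, *Fkbp5*, a chaperone of the receptor, rose by 1.74 (SE 0.17, edgeR adjusted p = 1.5e-05), and *Ddit4* had a log2 fold change of 0.86 (edgeR adjusted p = 0.0904).

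Of 14 interferon-stimulated genes, 10 fell and 1 rose in DKO-severe against WT, and 12 fell in DKO-severe against DKO-moderate. Over all tested genes, 25.9% fell and 26.6% rose in the first comparison, and 10.7% fell in the second. In DKO-moderate against WT, 1 fell and 1 rose. Their summed level was 1225 to 1467 CPM in WT, 946.1 to 1454 CPM in DKO-moderate, and 537.4 to 798.5 CPM in DKO-severe. The DKO-severe sums did not overlap the others, as was also the case for *Btg1*, *Btg2*, *Foxp1*, and *Slfn1*. *Usp18*, which dampens interferon receptor signaling, fell by 2.32 (SE 0.35, edgeR adjusted p = 0.000204) and *Oasl1* by 2.07 (SE 0.44, edgeR adjusted p = 0.00201) against WT, while *Mx1* rose by 1.84 (SE 0.27, edgeR adjusted p = 0.000176).

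All 12 proliferation genes rose in DKO-severe against WT and 11 of them in DKO-moderate, with *Bub1* (3.49, SE 0.33, edgeR adjusted p = 1.07e-05) and *Cdk1* (3.47, SE 0.44, edgeR adjusted p = 6.01e-05) showing the largest log2 fold changes of the list in DKO-severe. Of 8 naive T cell genes, 7 fell in DKO-severe and 4 in DKO-moderate, among them *Lef1* (log2 fold change -2.39, SE 0.25, edgeR adjusted p = 1.65e-05) in DKO-severe. Over all tested genes, 25.9% fell and 26.6% rose in DKO-severe against WT, and 4.74% fell and 12.3% rose in DKO-moderate. *Il7r* is in both the naive list and the one on Foxp1. In DKO-severe the naive list fell beside the 8 members that fell, but not beside *Slfn2*, and its part in their changes was not tested.

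**Figure D4:**
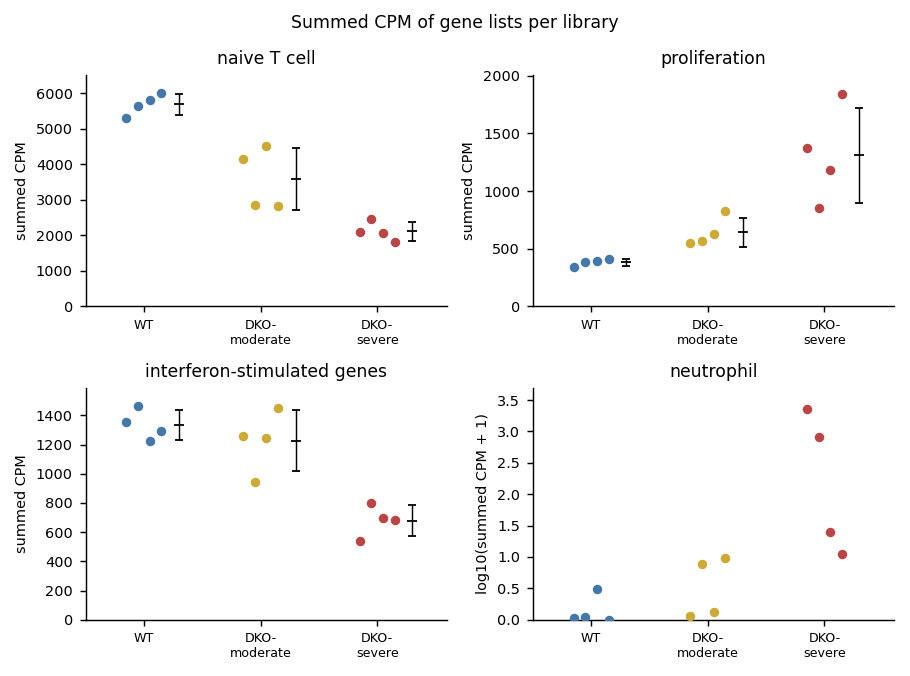
Summed CPM of the naive T cell, proliferation, interferon-stimulated, and neutrophil lists (y axes from 0, the last as log10 of summed CPM plus 1) in each library (points) by group (x axis), with the mean and SD of 4 libraries except for the neutrophil list. The interferon-stimulated sum was at most 798.5 CPM in DKO-severe and at least 946.1 CPM elsewhere, and the neutrophil sum reached 2249 CPM in DKO-severe 1.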

How the data were processed

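RNA sequencing of CD4+ YFP(FOXP3)- T cells from 12 mice was analysed, 4 per group, as grouped by the labels. The authors made directional libraries, aligned reads to mm10 with STAR 2.7.11, kept single-position reads, and deposited htseq-count read counts per gene without normalization. The annotation used was not given in the sources used here. Records not on genes were 18.53% to 23.73% and were left out. Genes with at least 10 reads over a group were tested with edgeR 4.0.16 (TMM, quasi-likelihood F test, 3 groups in 1 fit, Benjamini-Hochberg over 16035 genes, threshold 0.05) in R 4.3.3. An SE is the log2 fold change over the square root of F. The p-values measure spread between mice. Log2 CPM used a prior count of 2. Exon lengths and gene positions came from GENCODE on GRCm38 and promoters from RefSeq. Tables were made in Python 3.11.15. No library was a copy of another of its group (chi-square over degrees of freedom, 22.9 or more).

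The 9 genes and all lists were chosen with earlier results of these data known. Named genes are the 9, *Tet2*, *Tet3*, *Foxp3*, up to 4 genes a list with the largest and smallest change in DKO-severe, the catalytic subunits of CCR4-NOT, *Nr3c1*, and for each member the 2 most similar genes. *Elane* and *Gm20234* were added after their values were seen. Alternatives were DESeq2 1.42.0, limma voom 3.58.1, other scalings, filters, and covariates, the replicate block, and leaving out libraries. Tests were run on simulated data first. Results for 1 gene that this rule names are not reported here.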

Additional observations from a re-analysis of the deposited data

Results flagged for a closer look

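In all, 2 groups of 4 libraries had a library apart from the others by Dixon's test. In WT, *Slfn2* was highest in WT 1, at 576.8 CPM, where the gap to the next library was 0.92 of the range of the group. In DKO-severe, *Btg2* was lowest in DKO-severe 4, at 179.6 CPM, with a gap of 0.888 of the range. Of 27 groups tested, chance alone flags about 1 in 20.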

How the results depend on the processing

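Over 12 alternatives and 12 fits that each left out 1 library, *Btg1*, *Foxp1*, *Slfn1*, and *Slfn5* stayed below WT in DKO-severe with adjusted p under 0.05. Of results for single genes, 274 kept their call under the alternatives, 31 lost and 13 gained one, and 6 changed sign, and 292, 23, 7, and 2 did so when 1 library was left out. With terms for neutrophil and B cell genes, DKO-severe against WT gave 2874 genes and 4 members, DKO-moderate against WT 1 member, and DKO-severe against DKO-moderate 168 genes and 0 members by edgeR (4 at an unadjusted p under 0.05, 3 called by DESeq2 and by limma voom without the terms), with *Tob1* between the DKO groups at 0.074. Chosen after seeing the data, leaving out DKO-severe 1 and DKO-severe 2 gave 5 members in DKO-severe against WT and 2073 genes between the DKO groups, and leaving out WT 3 as well gave 5 members in DKO-severe against WT, 1 member in DKO-moderate against WT, and 2015 genes between the DKO groups, with *Tsc22d3* in DKO-moderate at 0.11. In DKO-moderate against WT, members changed numbered 4 with DESeq2 (3911 genes), 1 with only the groups compared (2545 genes), 1 with a term for Y-linked genes (2222 genes), and 1 at an adjusted p below 0.01, where 1142 genes changed. Between the DKO groups 926 genes changed at that threshold. Leaving out 1 library gave 1619 to 2919 genes and 1 to 3 members in DKO-moderate against WT and 1630 to 3653 genes between the DKO groups. *Tsc22d3* in DKO-moderate ranged from -0.44 to 0.11, the latter without WT 3. *Slfn2* between the DKO groups was 0.0017 with DESeq2, 0.0018 with its size factors in edgeR, 0.0298 with library size alone, and -0.116 to 0.0499 over the fits without 1 library, the highest without DKO-moderate 4, and *Tob2* was 0.0053 with library size alone. The causes were not tested. Library size alone raised the median of all genes in DKO-severe against WT to 0.178 and the share of calls that were higher from 50.7% to 66.5%. That share went from 72.2% to 81.2% in DKO-moderate and from 46.9% to 64.9% between the DKO groups (59.6% with DESeq2 size factors).

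With the replicate block, 8, 2, and 3 members changed in the 3 comparisons and 7794, 2201, and 2321 genes. *Btg1* in DKO-moderate lost its call (edgeR adjusted p = 0.0503) and *Tob1* gained one (0.0147). Residuals of libraries with the same number had a median correlation of -0.098 (-0.337 to 0.292), against 0.03 for different numbers, so the numbers were not taken as pairs.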

Other observations

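The 4 DKO-moderate libraries were uneven. DKO-moderate 2 and DKO-moderate 4, the libraries of this group without Y-linked transcripts, were both below DKO-moderate 1 and DKO-moderate 3 for 7 of the 9 genes, all except *Slfn2* and *Tob2*. The same held for 26.9% of all tested genes. In these libraries the naive T cell list summed to 2866 and 2825 CPM, against 4161 and 4528 CPM in DKO-moderate 1 and DKO-moderate 3. With 4 libraries, the absence of Y-linked transcripts and other differences between these mice cannot be told apart, and no test was made.

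The sort removed YFP(FOXP3)+ cells, and Treg-associated genes moved apart from *Foxp3*. In DKO-severe against WT, *Foxp3* fell by 2.11 (edgeR adjusted p = 0.0205), from a mean of 1.67 to 0.38 CPM, while *Ctla4* rose by 2.99 (edgeR adjusted p = 1.43e-05), *Il2ra* by 3.04 (edgeR adjusted p = 7.13e-06), and *Ikzf2* by 2.37 (edgeR adjusted p = 0.000339).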
